A study of Mus musculus with 20 samples.

Results

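Expression of 9 endothelial genes was followed by bulk RNA sequencing as aggregates of mouse embryonic stem cells formed trunk-like structures. The genes were Kdr, Flt1, Etv2, Sox18, Tie1, Tek, Cdh5, Cldn5 and Pecam1, taken by symbol as markers of blood vessel lining cells, with earlier results of these data known, and they are 9 of the 54446 gene IDs in the deposited tables. The cells were of the F1G4 line and carried T::H2B-mCherry and Sox2::H2B-Venus, reporters that place a red and a yellow nuclear protein under T (Brachyury) and Sox2. They were grown on feeder cells, freed of them, aggregated for 48 h and pulsed with 3 µM CHIR99021, which activates the WNT pathway, so all groups, controls included, shared the reporters and this pulse. The 96h group was collected at 96 h, with 10 structures pooled in each library. The other 4 groups were collected at 120 h, with 6 structures pooled in each library: gastruloids (Gastruloid), and the same aggregates embedded in Matrigel alone (TLSMG), with CHIR added (TLSMGC) or with both CHIR and LDN added (TLSMGCL). Matrigel is an extract rich in laminin and collagen IV that stands in for a basement membrane. LDN names inhibitors of BMP type I receptors, and doses for these last additions are not given in the sources used here. Each group had 3 libraries (15 in all; the 5 single-cell libraries of the series were not analysed here), described in the labels as biological replicates, and only structures with an asymmetric pole were pooled at 120 h.

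Endothelial cells arise from mesoderm that expresses Kdr, a receptor for the growth factor VEGF-A. The ETS factor Etv2 acts briefly at the head of this lineage, and other ETS factors and SOX F factors such as Sox18 then maintain endothelial genes together. Maturing endothelium carries the TIE receptors, which respond to angiopoietins, and the junction proteins VE-cadherin (Cdh5), claudin 5 (Cldn5) and PECAM1, which seal the vessel wall. In the trunk of the embryo, vessels such as the dorsal aortae run beside the somites and the neural tube, the tissues named in the title of the study.

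Because the 9 genes moved together between libraries, their promoters are shown for the letters that ETS and SOX factors bind. The RefSeq promoter table (build GRCm38.p6) held 6 of the 9 genes, and windows of 250 bases before the start were searched on both strands for CNGGAAG (ETS) and AACAAT (SOX). The sequences run 5′ to 3′ on the gene's strand, with matches in capitals. Kdr, the gene with the highest mean TPM of the 9 in TLSMG, had no match (chr5:75978456-75978705, minus strand). Flt1 had 1 ETS match (chr5:147726012-147726261, minus strand), starting 73 bases before the start, and Tek had 1 SOX match (chr4:94739039-94739288, plus strand), starting 63 bases before it. Tie1 had 2 ETS matches, starting 91 and 81 bases before the RefSeq start. For Tie1 only the 30 bases around them are shown (chr4:118489917-118489946, minus strand), since the deposited tables place its start further upstream.
Kdr: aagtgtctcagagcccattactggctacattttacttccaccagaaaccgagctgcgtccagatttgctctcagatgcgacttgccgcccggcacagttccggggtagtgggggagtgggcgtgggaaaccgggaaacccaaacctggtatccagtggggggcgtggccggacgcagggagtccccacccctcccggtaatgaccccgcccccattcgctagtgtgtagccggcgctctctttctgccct
Flt1: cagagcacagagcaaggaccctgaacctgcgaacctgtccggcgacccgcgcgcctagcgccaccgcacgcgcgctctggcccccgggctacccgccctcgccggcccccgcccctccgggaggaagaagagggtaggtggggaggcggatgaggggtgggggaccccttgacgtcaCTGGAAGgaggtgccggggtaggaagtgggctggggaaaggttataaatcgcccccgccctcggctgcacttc
Tek: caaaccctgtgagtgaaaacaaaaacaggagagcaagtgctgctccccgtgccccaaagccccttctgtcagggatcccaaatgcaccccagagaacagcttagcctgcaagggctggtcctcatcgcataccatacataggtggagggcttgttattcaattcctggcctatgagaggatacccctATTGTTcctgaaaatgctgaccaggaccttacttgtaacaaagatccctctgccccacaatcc
Tie1: ccccccCTTCCAGagaCTTCCAGgccacac
ETS letters thus stood in 2 of the 6 promoters and in 26.6% of all 32851 promoters of the table. SOX letters stood in 1 of the 6 and in 9.42% of all. Etv2 and Cldn5 held neither. These matches describe letters only, and no binding was measured.

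Relative depth, taken as coverage per unit of FPKM, ran from 3.12 to 6.84 over the 15 libraries, and 13688 to 14494 genes per library reached 1 TPM (transcripts per 1000000, a level corrected for length). Tests were run on log2(TPM + 1) with limma, and 14290 genes with a mean of at least 1 TPM over the 15 libraries entered. All 9 endothelial genes passed this filter, also when the TLSMG libraries were left out of the mean. Over all tested genes the median log2 difference was 0.143 in TLSMG against 96h, 0.134 in TLSMG against Gastruloid, -0.157 in TLSMGC against TLSMG and -0.184 in TLSMGCL against TLSMG, and lay within 0.024 of 0 after median-of-ratios scaling. The split of higher and lower genes moved with it, from 4792 and 1785 to 3290 and 3187, from 4497 and 1125 to 2770 and 2585, from 1490 and 4352 to 2484 and 2817, and from 1330 and 5086 to 2613 and 3004. With FPKM in place of TPM, these 4 splits were 3590 and 2232, 2576 and 2602, 2095 and 2844, and 2037 and 3222, and that in Gastruloid against 96h went from 2969 and 2925 to 3597 and 2158. In TLSMGCL against TLSMGC, the split went from 58 and 111 to 105 and 100 by median-of-ratios scaling and to 90 and 112 by FPKM. After median-of-ratios scaling, all 9 genes kept direction and side of the threshold in each of the 10 comparisons between groups.

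Endothelial genes were low at 96 h, 6 of them were higher at 120 h without Matrigel, and the highest levels were those in Matrigel alone. The summed TPM of the 9 genes was 14.9, 11.04 and 10.1 in the 96h libraries, 34.6, 38.6 and 45.8 in Gastruloid, 324, 286 and 267 in TLSMG, 49.1, 84.5 and 25.1 in TLSMGC and 12.8, 21.1 and 21.2 in TLSMGCL. Every TLSMG library lay above every other library in this sum, and the TLSMGC libraries differed most from each other. In TLSMG against Gastruloid, 8 of the 9 genes were higher (background 31.5% of all tested genes higher), with Pecam1 the exception. Against TLSMG, all 9 were lower in TLSMGC (background 30.5% lower) and all 9 in TLSMGCL (background 35.6% lower). Against TLSMGC, 3 were lower in TLSMGCL (background 0.777% lower). By the F test over the 5 groups, 9 of 9 differed (background 73.5%). In bulk RNA, fewer endothelial cells and less RNA of these genes per cell cannot be told apart.

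**Figure D1:**
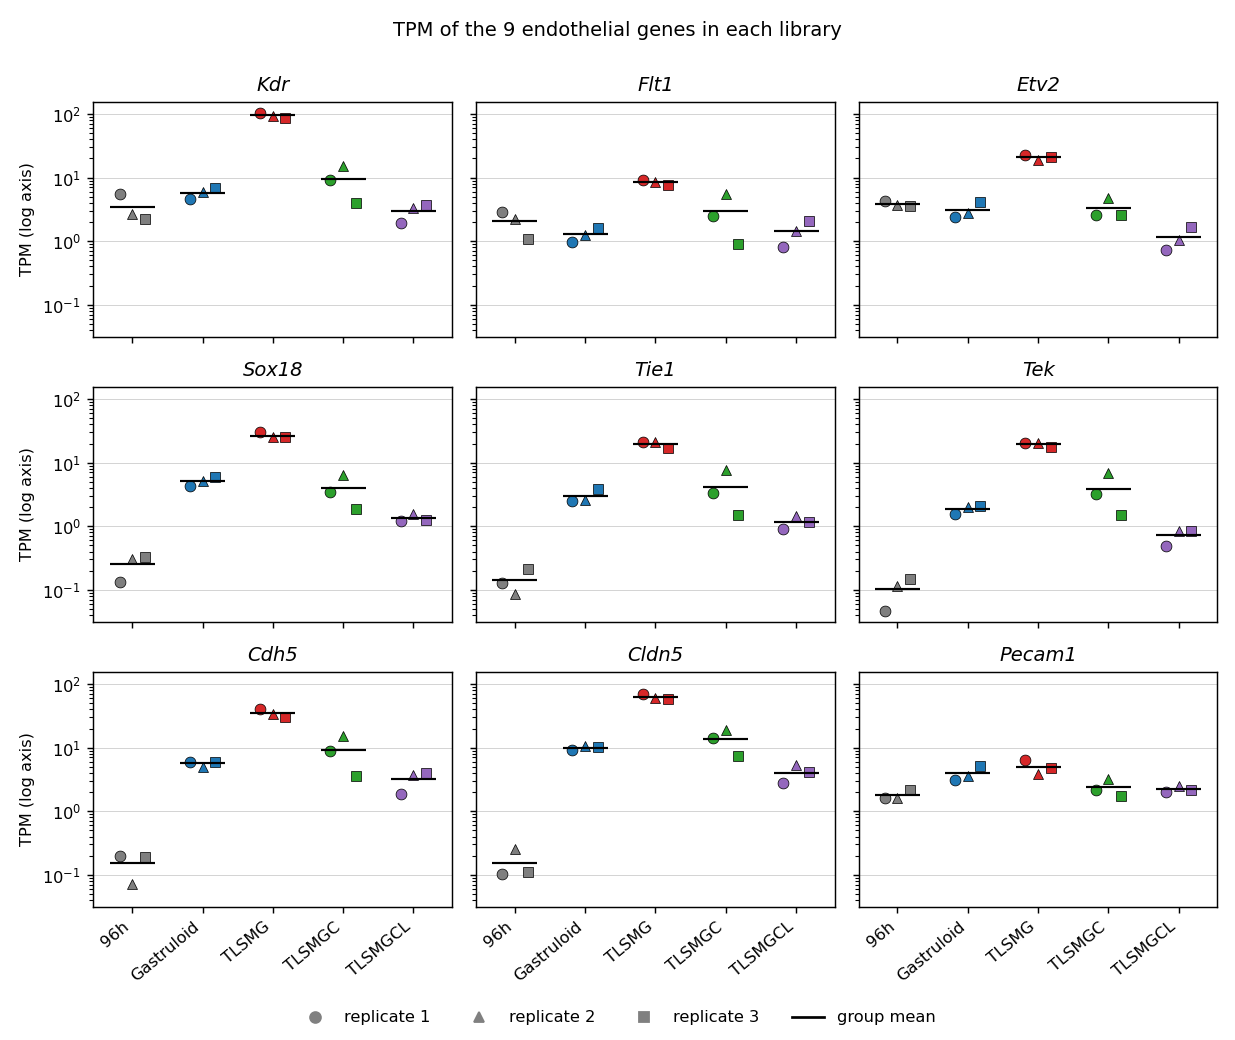
TPM of each of the 9 endothelial genes (log axis) in the 15 libraries, by group. Symbols are replicates and bars group means. The TLSMG libraries lie above all other libraries for every gene but Pecam1, and the TLSMGC libraries are spread in the same order for each gene, with replicate 2 on top and replicate 3 at the bottom.

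Both VEGF receptors were highest in TLSMG, Kdr at a far higher level than Flt1. Kdr (VEGFR2, ENSMUSG00000062960.10, mm10 chromosome 5, 75932827 to 75978458, minus strand) is the main signalling receptor of VEGF-A in endothelium. It measured 5.55, 2.696 and 2.22 TPM at 96 h and 4.59, 5.89 and 6.93 TPM in Gastruloid. In TLSMG it reached 106, 94.8 and 85.2 TPM, above every library of both groups. With CHIR it measured 9.05, 15.4 and 4.01 TPM, and with CHIR and LDN 1.94, 3.31 and 3.73 TPM. All TLSMGCL libraries lay below all TLSMGC libraries, and both groups lay far below TLSMG. Kdr was 16.4-fold higher in TLSMG than in Gastruloid by mean TPM, with a log2 difference of 3.83 ± 0.36 (SE; limma adjusted p = 2.44e-05), the largest among the 9 genes. In TLSMGC it was 10.1-fold lower than in TLSMG (log2 difference -3.36 ± 0.36, adjusted p = 8.43e-06). Kdr in Gastruloid overlapped with 96h and did not pass the test there (0.66 ± 0.36, adjusted p = 0.160).

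Flt1 (VEGFR1, ENSMUSG00000029648.13, chromosome 5, 147561604 to 147726011, minus strand) binds VEGF-A tightly and, as a decoy, limits what reaches Kdr. Its levels were 2.88, 2.20 and 1.09 TPM at 96 h, 0.967, 1.26 and 1.61 TPM in Gastruloid, 9.27, 8.56 and 7.76 TPM in TLSMG, 2.46, 5.62 and 0.912 TPM in TLSMGC and 0.820, 1.42 and 2.05 TPM in TLSMGCL. Outside TLSMG the groups overlapped with each other. Flt1 rose in TLSMG against Gastruloid (6.67-fold, log2 difference 2.07 ± 0.36, adjusted p = 0.000789) and was 2.85-fold lower in TLSMGC (-1.43 ± 0.36, adjusted p = 0.00575). It was the only gene of the 9 with no passing difference among the 4 groups other than TLSMG.

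Of the transcription factors, Etv2 (ENSMUSG00000006311.8, chromosome 7, 30633616 to 30635852, minus strand), the early ETS factor, was already present at 96 h. It measured 4.22, 3.69 and 3.58 TPM there and 2.42, 2.80 and 4.10 TPM in Gastruloid. TLSMG had 22.3, 18.9 and 21.5 TPM, 6.72-fold above Gastruloid (log2 difference 2.43 ± 0.21, adjusted p = 1.34e-05). TLSMG was the only group whose libraries all lay above those of 96h. TLSMGC measured 2.60, 4.75 and 2.54 TPM, overlapping with 96h and Gastruloid, and TLSMGCL measured 0.724, 1.05 and 1.69 TPM, below each library of the other 4 groups. Etv2 was thus the only gene of the 9 lower in TLSMGCL than at 96 h (-1.19 ± 0.21, adjusted p = 0.000491).

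Sox18 (ENSMUSG00000046470.5, chromosome 2, 181669836 to 181671640, minus strand), a SOX F factor of early vessels, was nearly absent at 96 h, at 0.134, 0.310 and 0.333 TPM. It rose to 4.32, 5.12 and 6.01 TPM in Gastruloid (log2 difference 2.28 ± 0.25, adjusted p = 7.67e-06) and to 29.9, 25.1 and 25.1 TPM in TLSMG, 5.18-fold more (2.18 ± 0.25, adjusted p = 8.82e-05). Sox18 was at 3.44, 6.47 and 1.87 TPM in TLSMGC, overlapping with Gastruloid, and at 1.22, 1.57 and 1.24 TPM in TLSMGCL, below Gastruloid in every library (-1.39 ± 0.25, adjusted p = 0.000695).

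The TIE receptors Tie1 and Tek had similar profiles. Tie1 (ENSMUSG00000033191.14, chromosome 4, 118471191 to 118490061, minus strand), an orphan receptor that modulates Tek, was at 0.129, 0.0864 and 0.214 TPM at 96 h, 2.51, 2.56 and 3.83 TPM in Gastruloid, 20.8, 21.1 and 16.8 TPM in TLSMG, 3.27, 7.78 and 1.48 TPM in TLSMGC and 0.895, 1.47 and 1.18 TPM in TLSMGCL. Tek (TIE2, ENSMUSG00000006386.15, chromosome 4, 94739289 to 94874976, plus strand), the receptor of angiopoietins, was at 0.0465, 0.115 and 0.149 TPM, 1.56, 1.97 and 2.07 TPM, 20.6, 20.4 and 17.6 TPM, 3.20, 6.79 and 1.51 TPM and 0.481, 0.849 and 0.856 TPM in the same order. Both had their lowest levels at 96 h and their highest in TLSMG, with no overlap between these groups. From Gastruloid to TLSMG, Tie1 rose 6.60-fold (log2 difference 2.39 ± 0.32, adjusted p = 0.000211) and Tek 10.5-fold (2.84 ± 0.28, adjusted p = 3.82e-05). Under CHIR both fell, Tie1 by 2.18 and Tek by 2.24 on the log2 scale (adjusted p = 0.000143 and 3.69e-05).

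Among the junction genes, Cldn5 and Cdh5 went from near 0 to high levels. Cldn5 (ENSMUSG00000041378.2, chromosome 16, 18776847 to 18778262, plus strand), the claudin of endothelial tight junctions, was at 0.102, 0.253 and 0.109 TPM at 96 h and 9.19, 10.5 and 10.1 TPM in Gastruloid. It measured 69.0, 59.8 and 58.3 TPM in TLSMG, 14.1, 19.3 and 7.42 TPM in TLSMGC and 2.75, 5.24 and 4.17 TPM in TLSMGCL. Cldn5 was 6.29-fold higher in TLSMG than in Gastruloid (log2 difference 2.54 ± 0.25, adjusted p = 3.82e-05). It was 4.58-fold lower in TLSMGC than in TLSMG (-2.20 ± 0.25, adjusted p = 1.49e-05).

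Cdh5 (ENSMUSG00000031871.9, chromosome 8, 104101625 to 104144511, plus strand) encodes VE-cadherin of endothelial adherens junctions. Its levels were 0.198, 0.0718 and 0.193 TPM at 96 h, 6.00, 5.01 and 5.95 TPM in Gastruloid, 40.0, 34.0 and 30.4 TPM in TLSMG, 8.78, 15.3 and 3.58 TPM in TLSMGC and 1.90, 3.70 and 4.06 TPM in TLSMGCL. The lowest TLSMG library, at 30.4 TPM, lay above the highest TLSMGC library, at 15.3 TPM. TLSMG was 6.16-fold above Gastruloid (2.42 ± 0.34, adjusted p = 0.000249), and the level in TLSMGC was 3.78-fold lower (-1.98 ± 0.34, adjusted p = 0.000442).

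Pecam1 (ENSMUSG00000020717.19, chromosome 11, 106654217 to 106750628, minus strand), an adhesion molecule that is also expressed in pluripotent cells, stood apart from the other genes. It measured 1.59, 1.62 and 2.19 TPM at 96 h, 3.09, 3.56 and 5.16 TPM in Gastruloid, 6.49, 3.83 and 4.74 TPM in TLSMG, 2.18, 3.21 and 1.77 TPM in TLSMGC and 2.04, 2.46 and 2.20 TPM in TLSMGCL. TLSMG and Gastruloid overlapped, with a log2 difference of 0.28 ± 0.20 (adjusted p = 0.270). Its difference between TLSMGC and TLSMG was also the smallest of the 9 genes (-0.83 ± 0.20, adjusted p = 0.00436).

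**Figure D2:**
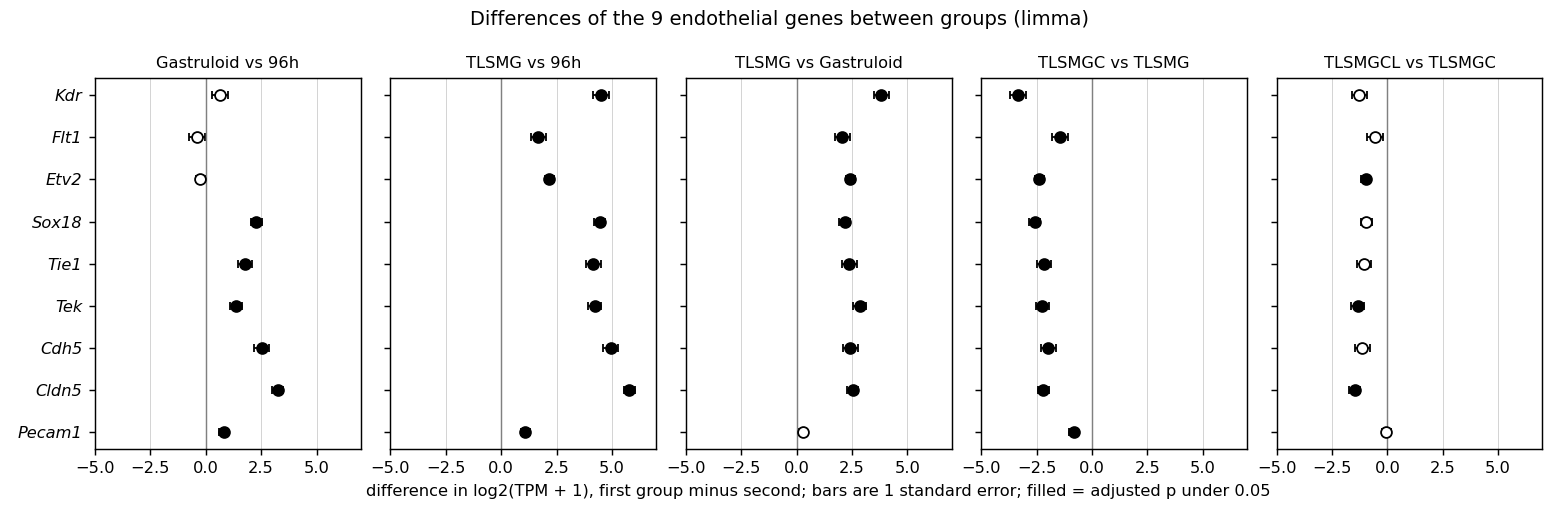
Differences in log2(TPM + 1) of the 9 endothelial genes in 5 comparisons, first group minus second, with 1 standard error. Filled points passed an adjusted p of 0.05. In TLSMG against Gastruloid, Kdr has the largest difference (3.83) and Pecam1 the smallest (0.28), and in TLSMGCL against TLSMGC 3 of 9 points are filled.

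From 96 h to 120 h without Matrigel, 6 of the 9 genes rose (background 20.8% higher), namely Cdh5, Pecam1, Tie1, Tek, Cldn5 and Sox18. Kdr, Etv2 and Flt1 did not pass, and their libraries overlapped. With Matrigel, all 9 rose over the same time (background 33.5% higher), from 1.09 ± 0.20 for Pecam1 to 5.78 ± 0.25 for Cldn5 on the log2 scale. With CHIR in Matrigel, Kdr, Cdh5, Tie1, Tek, Cldn5 and Sox18 were higher than at 96 h, 6 in all (background 20.6% higher), and 4 with CHIR and LDN, namely Cdh5, Tie1, Cldn5 and Sox18 (background 17.4% higher and 22.1% lower). The call for Kdr in TLSMGC against 96h (1.13 ± 0.36, adjusted p = 0.0218) was lost without 96h replicate 2 or 3 or TLSMGC replicate 1 or 2 (adjusted p = 0.0606 to 0.104), with a log2 difference of 0.73 without TLSMGC replicate 2. That for Tie1 in TLSMGCL against 96h (0.93 ± 0.32, adjusted p = 0.0344) was lost without any 96h replicate or TLSMGCL replicate 2 or 3 (adjusted p = 0.0614 to 0.0948), and with FPKM in place of TPM (adjusted p = 0.0979).

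Few of the genes separated structures with CHIR in Matrigel from gastruloids. In TLSMGC against Gastruloid, Pecam1 was lower (-0.54 ± 0.20, adjusted p = 0.0389; background 21.2% lower), and the other 8 genes did not pass, with log2 differences from -0.42 for Sox18 to 0.64 for Flt1. TLSMGC libraries overlapped with Gastruloid for all 9 genes. The count rests on single libraries. Without TLSMGC replicate 3, 5 genes were higher, and without TLSMGC replicate 2, 2 were lower. None passed without Gastruloid replicate 2 or 3 or TLSMGC replicate 1. Over all genes, 4890 to 5953 were called in either direction on leaving out 1 library of these groups, against 6037 with all. With LDN as well, 4 genes were lower than in Gastruloid, namely Etv2, Pecam1, Cldn5 and Sox18 (background 21.1% lower). The call for Pecam1 there was lost without Gastruloid replicate 3 or TLSMGCL replicate 1 or 3 (adjusted p = 0.0745 to 0.134).

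LDN on top of CHIR was tested by TLSMGCL against TLSMGC. The 3 genes that were lower were Cldn5 (3.36-fold, log2 difference -1.47 ± 0.25, adjusted p = 0.0116), Tek (5.26-fold, -1.34 ± 0.28, adjusted p = 0.0393) and Etv2 (2.85-fold, -0.98 ± 0.21, adjusted p = 0.0391). Kdr, Cdh5, Tie1 and Sox18 had log2 differences of -1.26, -1.14, -1.06 and -0.97 and did not pass (adjusted p = 0.0887 to 0.154), while the differences of Flt1 and Pecam1 were -0.57 and -0.05. At an unadjusted p under 0.05, 7 genes were lower and 0 higher, but the share of all genes at that threshold was not taken, so this count cannot be weighed. TLSMGCL libraries lay below all TLSMGC libraries for 6 genes (background 10.3%). The 3 calls fell to 0 without TLSMGC replicate 2 or TLSMGCL replicate 1, and to 1 without TLSMGC replicate 1 or TLSMGCL replicate 2. They fell to 2 without TLSMGCL replicate 3 and rose to 7 without TLSMGC replicate 3. Over all genes, 56 to 197 were called in either direction on leaving out 1 library of these groups, against 169 with all.

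Ordered by mean TPM, TLSMG was first for all 9 genes. Its gap to the next group passed the test for 8 of them, and for Pecam1 the next group, Gastruloid, did not differ beyond the spread. TLSMGC came next for Kdr, Cdh5, Tie1, Tek, Cldn5 and Flt1, 96h for Etv2 and Gastruloid for Sox18 and Pecam1. TLSMGC and Gastruloid were neighbours for 8 genes and overlapped in each. Only the gap of Pecam1 passed (limma adjusted p = 0.0389), a call lost without Gastruloid replicate 2 or 3 or TLSMGC replicate 1 or 3. For the other genes the order of these groups is within the spread. Without TLSMGC replicate 2 it turned for Tie1 (log2 difference -0.27) and Etv2 (-0.18), as did that of TLSMGC and 96h for Flt1 (-0.20). The lowest group was 96h for 6 genes (Cdh5, Pecam1, Tie1, Tek, Cldn5 and Sox18), TLSMGCL for Kdr and Etv2 and Gastruloid for Flt1, and its gap to the group above did not pass for Kdr, Pecam1, Tek and Flt1.

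In each group at 120 h, most of the 9 genes were high or low together in single libraries. In TLSMGC, replicate 2 was the highest of the 3 for 9 of 9 genes (28.1% of all genes) and replicate 3 the lowest for 9 of 9 (43.1% of all genes). The highest library exceeded the lowest by 1.82-fold for Pecam1 to 6.16-fold for Flt1, with a median of 3.83-fold. The median coefficient of variation of the 9 genes was 60.02% in TLSMGC against 10.3% over all genes. It was 45.3% against 7.79% at 96h, 30.9% against 11.2% in TLSMGCL, 20.2% against 8.79% in Gastruloid and 10.5% against 8.23% in TLSMG. Replicate 2 was also the highest for 21 of 23 other endothelial genes. The summed level of 4 gut endoderm markers was highest in replicate 2 as well (36.6 TPM, against 26.2 and 14.8 TPM in replicates 1 and 3). One of them is Sox17, also an endothelial gene (5.91, 13.9 and 2.48 TPM), and the other 3 summed to 20.3, 22.7 and 12.3 TPM in replicates 1 to 3. The part of gut cells in the result was not tested. In TLSMGCL, replicate 1 was the lowest for 9 of 9 genes (22.7% of all genes). In Gastruloid, replicate 1 was the lowest for 8 (42.4% of all genes) and replicate 3 the highest for 7 (46.6% of all genes). In TLSMG, replicate 1 was the highest for 8 (22.1% of all genes) and for 19 of the 23 other endothelial genes. TLSMG replicate 3 was the lowest for 7 of the 9 (18.1% of all genes). At 96 h there was no such order, and replicate 1 was the highest for 4 of the 9 and the lowest for 4.

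**Figure D3:**
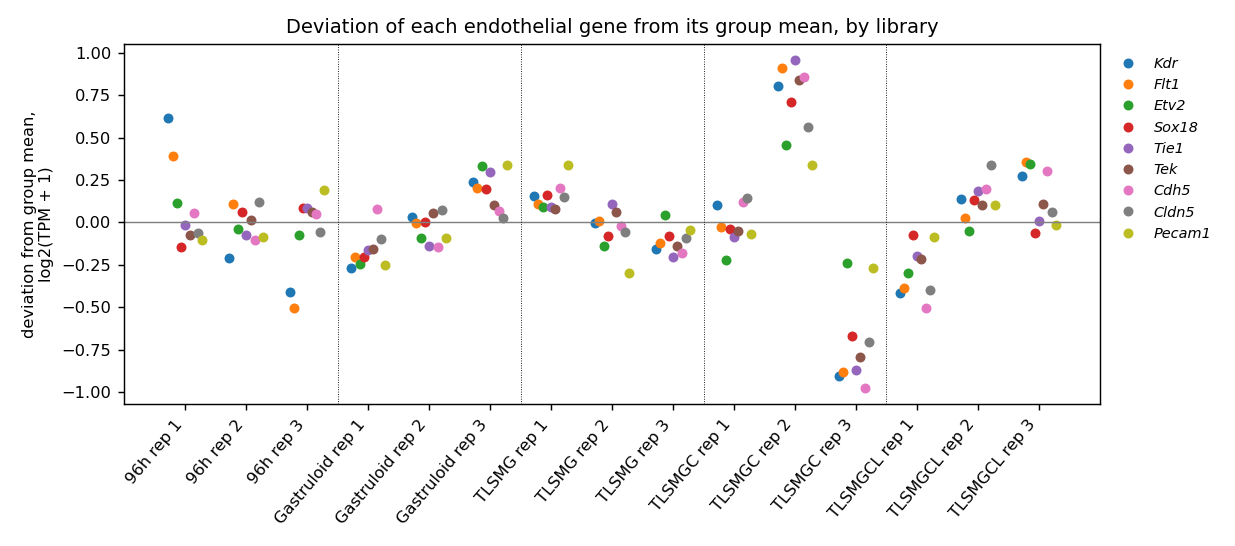
Deviation of each gene's log2(TPM + 1) from the mean of its group, by library, with one point per gene. In TLSMGC the 9 genes lie together above 0 in replicate 2 (median 0.80) and below 0 in replicate 3 (median -0.79), while the medians of the TLSMG libraries lie between -0.12 and 0.15.

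The deviations from group means correlated positively between all 36 pairs of the 9 genes, with Pearson's r from 0.469 for Pecam1 and Flt1 to 0.970 for Tie1 and Tek (median 0.798, 15 libraries). Without the TLSMGC libraries, r ran from 0.069 to 0.902 (median 0.533, 12 libraries). Genes of one library share its cells and depth, so these values are a description only.

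The proportions among the 9 genes also differed between groups. Kdr made up 32.5% ± 0.62 (SD, n = 3) of their summed TPM in TLSMG, 14.5% ± 1.1 in Gastruloid, 17.5% ± 1.4 in TLSMGC and 16.2% ± 1.3 in TLSMGCL. At 96 h the share was 27.9% ± 8.2, overlapping with TLSMG, and Cdh5, Tie1, Tek, Cldn5 and Sox18 were near 0 there. Relative to Cdh5, Kdr stood at 2.74 ± 0.087 in TLSMG, 1.05 ± 0.060 in TLSMGC, 1.04 ± 0.23 in Gastruloid and 0.945 ± 0.068 in TLSMGCL. Every TLSMG library lay above all other 120 h libraries in this ratio. Tek relative to Cdh5 was 0.564 ± 0.043 in TLSMG, 0.410 ± 0.041 in TLSMGC, 0.334 ± 0.068 in Gastruloid and 0.231 ± 0.022 in TLSMGCL. Pecam1 relative to Cdh5 went the other way, at 0.144 ± 0.027 in TLSMG and 0.698 ± 0.18 in Gastruloid. No test was run on these ratios. At 96 h Etv2 held 32.5% of the sum, against 6.21% to 7.74% in the groups at 120 h.

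**Figure D4:**
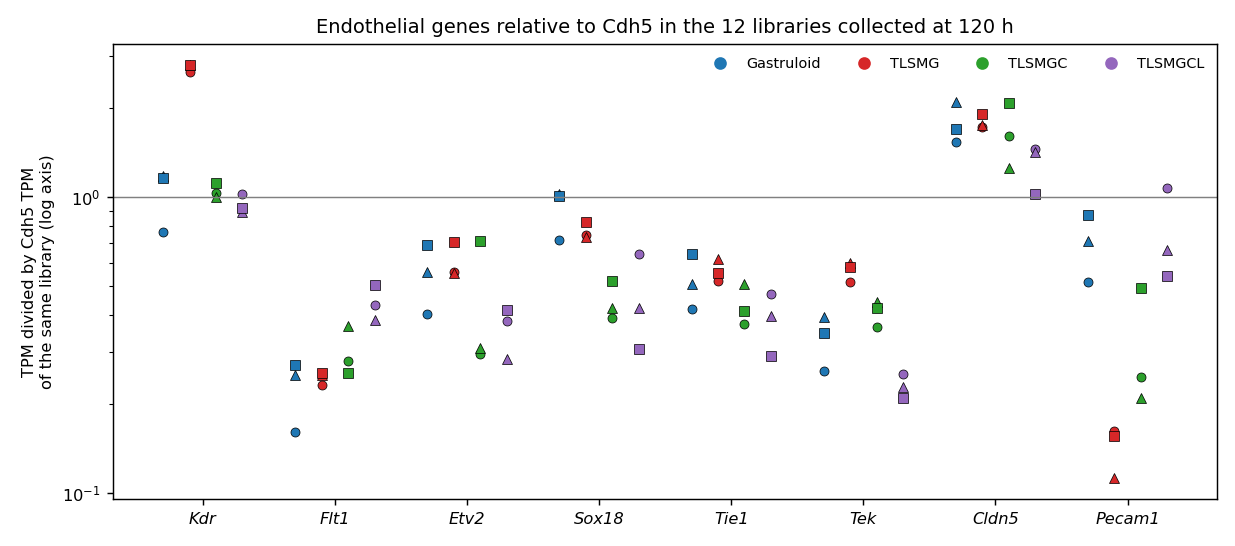
TPM of 8 endothelial genes divided by the TPM of Cdh5 in the same library (log axis), for the 12 libraries at 120 h; circles, triangles and squares are replicates 1, 2 and 3. Kdr per Cdh5 is highest in the TLSMG libraries (mean 2.74) and Pecam1 per Cdh5 lowest there (mean 0.144).

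Other endothelial genes moved in the same comparisons. Of a list of 28, 23 were tested, and 4 of these (Emcn, Robo4, Icam2 and Cd93) passed the filter only through TLSMG, where they were high. Of the other 19, 17 were higher in TLSMG than in Gastruloid (all genes, 31.5% higher) and 0 lower, with a median log2 difference of 1.91 against 0.134 over all genes. Sox17 and Vwf did not pass. In TLSMGC against TLSMG, 17 of the 19 were lower (all genes, 30.5% lower) and 1 was higher, with a median of -1.22 against -0.157 over all genes. Erg, an ETS factor of vessel identity, averaged 1.204 TPM in Gastruloid, 14.7 TPM in TLSMG and 2.57 TPM in TLSMGC (log2 differences 2.84 ± 0.35 and -2.36 ± 0.35, adjusted p = 0.000132 and 0.000149). Emcn, a surface sialomucin of endothelium and one of the 4, was listed at 0 in the 96h libraries and averaged 2.24, 20.1 and 1.26 TPM in these groups. Lmo2, a partner of Tal1 in blood and vessel precursors, was the gene of the 19 that rose from TLSMG to TLSMGC, from a mean of 25.7 to 82.7 TPM (1.67 ± 0.30, adjusted p = 0.000600).

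The ligands and other receptors of the pathway moved less uniformly. Of 12 genes, 11 were tested (Angpt2 was not), and Angpt1 passed the filter only through TLSMG. Of the other 10, 5 were higher in TLSMG than in Gastruloid (all genes, 31.5% higher) and 0 lower, while by median-of-ratios scaling and by FPKM 1 of those tested was lower. The higher ones were the lymphatic receptor Flt4 (3.25 to 20.8 TPM by group mean), its ligand Vegfc (4.77 to 12.6 TPM), the co-receptors Nrp1 and Nrp2, and the apelin receptor Aplnr (10.1 to 47.9 TPM). Angpt1, a ligand of Tek, averaged 0.776 and 3.37 TPM in these groups. The call for Nrp1 (0.98 ± 0.36, adjusted p = 0.0447) was lost by median-of-ratios scaling (adjusted p = 0.0931), after removal of GC content and length (adjusted p = 0.298), and on leaving out any of the 6 libraries of these groups (adjusted p = 0.0650 to 0.108). Vegfa, the main ligand of Kdr and Flt1, averaged 17.6 TPM in Gastruloid and 19.0 TPM in TLSMG and did not pass (0.10 ± 0.12, adjusted p = 0.519). It was higher in TLSMGC than in TLSMG (24.9 TPM, 0.37 ± 0.12, adjusted p = 0.0198), the comparison in which Kdr and Flt1 were lower, but the call was lost without TLSMG replicate 2 (adjusted p = 0.0571) or TLSMGC replicate 2 (adjusted p = 0.0626). Nrp1, Flt4, Angpt1, Aplnr and Pgf were lower there, Nrp1 most (-3.41 ± 0.36, adjusted p = 7.51e-06). The call for Pgf (-0.50 ± 0.16, adjusted p = 0.0266) was lost by median-of-ratios scaling (adjusted p = 0.0879), by FPKM (adjusted p = 0.0662), and without TLSMG replicate 1 or 3 or TLSMGC replicate 2 or 3 (adjusted p = 0.0834 to 0.111), among other settings.

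Arterial and Notch genes showed no common direction. Of 9 tested of 12, 2 were higher in TLSMG than in Gastruloid (Hey2 and Unc5b; all genes, 31.5% higher) and 1 lower, with a median log2 difference of 0.09 that was -0.07 by median-of-ratios scaling. The one lower was Cxcr4, a chemokine receptor of arterial cells and of other mesoderm, which was higher in TLSMGC than in TLSMG (15.9 to 64.9 TPM, 1.98 ± 0.14, adjusted p = 2.63e-07). Of 4 venous and lymphatic genes tested of 6, Nr2f2 and Ephb4 were higher in TLSMG than in Gastruloid (all genes, 31.5% higher) and Pdpn was lower. The call for Nr2f2 (0.57 ± 0.21, adjusted p = 0.0465) was lost by median-of-ratios scaling (adjusted p = 0.125) and on leaving out any library of these groups but Gastruloid replicate 3 (adjusted p = 0.0598 to 0.163).

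**Figure D5:**
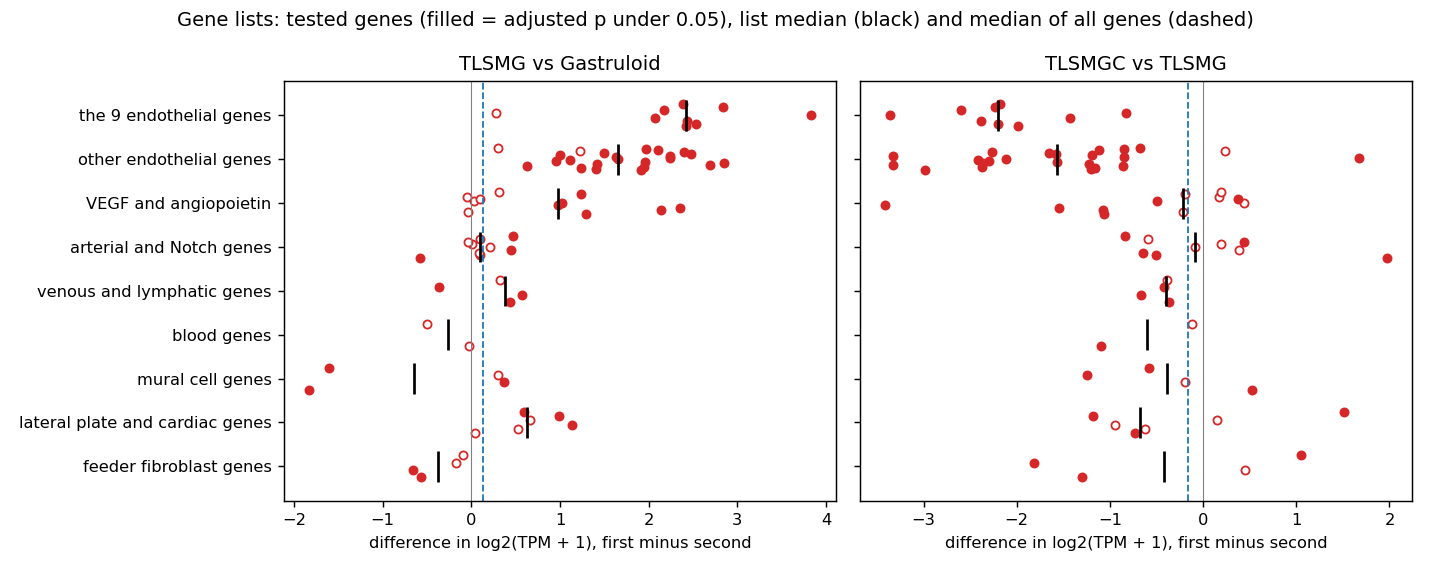
Log2 differences of the tested genes of each list in TLSMG against Gastruloid and in TLSMGC against TLSMG, with the list median (black) and the median of all genes (dashed). The 23 other endothelial genes, 4 of which passed the filter only through TLSMG, have medians of 1.65 and -1.56. Arterial and Notch genes have medians of 0.09 and -0.09, near those of all genes, with single genes called in both directions.

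Markers of neighbouring cell types were measured beside these results. Blood markers summed to 0.887 to 3.66 TPM per library, and the globins Hbb-bh1 and Hba-x and the leukocyte gene Ptprc were listed at 0 in all 15. Mural cell markers summed to 28.4 to 34.8 TPM in Gastruloid, 38.9 to 40.0 TPM in TLSMG and 13.2 to 19.5 TPM in TLSMGC, mostly from Pdgfrb, while Cspg4 and Myh11 stayed under 1 TPM in all libraries. Some other genes of the mural list went the other way. Acta2, smooth muscle actin, fell from 24.1 TPM in Gastruloid to 6.05 TPM in TLSMG (-1.83 ± 0.16, adjusted p = 1.71e-05). Acta2 was higher in TLSMGC (9.29 TPM, 0.53 ± 0.16, adjusted p = 0.0196), a call lost without TLSMG replicate 1 or 3 or TLSMGC replicate 1 or 3 (adjusted p = 0.0501 to 0.0892). Tagln, chosen after its values were seen, was also lower in TLSMG than in Gastruloid (0.652 against 4.13 TPM). Notch3 of this list was higher in TLSMG than in Gastruloid (log2 difference 0.37, adjusted p = 0.00497), and Pdgfrb did not pass in that comparison. Pdgfrb is also expressed in mesoderm and fell from TLSMG to TLSMGC along with the endothelial genes (-1.25 ± 0.17, adjusted p = 6.38e-05), and its part in the result was not tested. The cardiac markers Nkx2-5 and Tbx5 were under 1 TPM in all libraries. The highest cardiac marker sum (17.1 TPM), in 96h replicate 1, thus came mostly from the remaining markers, Hand1 and Gata4. Kdr in that library was at 5.55 TPM, above the other 96h libraries. Cardiac marker sums were 0.974 to 1.65 TPM in Gastruloid and 1.90 to 3.06 TPM in TLSMG. Of 6 lateral plate and cardiac genes tested, 3 were higher in TLSMG than in Gastruloid (all genes, 31.5% higher), namely Gata6, Mesp1 and, named after its values were seen, Isl1. By median-of-ratios scaling 2 of 6 were higher, and by FPKM 0 of the 3 tested. The calls for Gata6 and Mesp1 were lost by FPKM (adjusted p = 0.0546 and 0.0730) and without Gastruloid replicate 1 or TLSMG replicate 1 or 3 (adjusted p = 0.0622 to 0.115), and that for Gata6 also without Gastruloid replicate 3. Neural tube markers summed to 125 to 173 TPM in Gastruloid, 86.4 to 130 TPM in TLSMG and 26.4 to 30.9 TPM in TLSMGC, lower in the last as the endothelial genes were. The part of these cells in the result was not tested. Without 96h replicate 1 and TLSMGC replicate 2, Kdr also passed in Gastruloid against 96h (0.96, adjusted p = 0.0188), and 9 genes were lower in TLSMGC than in TLSMG and 9 higher in TLSMG than at 96 h, the same counts as with them. TLSMG against Gastruloid holds neither library and was not refitted. Feeder fibroblast markers summed to 18.7 to 31.6 TPM in Gastruloid and 13.3 to 17.7 TPM in TLSMG, with no overlap between these groups. At 96 h they summed to only 2.60 to 3.09 TPM, below every 120 h library. Of the feeder list, Col1a1, Col1a2 and Col3a1 were higher than at 96 h in every 120 h group (all genes, 17.4% to 33.5% higher). Thy1 of this list, named after its values were seen, went the other way and was lower in each. The part of feeder cells in these sums was not tested.

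The genes whose profile over the 15 libraries was most like the mean of the 9 were Arap3 and Erg (Pearson's r = 0.988), Lcp1 (0.987), Lyl1 (0.986), Thsd1 (0.985), Adam12 (0.983), Cd93 (0.98), Ecscr (0.979), Stab1 (0.978) and Emcn (0.976). The median r was 0.937 over the 23 other endothelial genes and 0.252 over all 14281 other genes. Lyl1, Adam12, Cd93 and Emcn passed the filter only through TLSMG, where the 9 genes were also highest. So did Robo4 and Icam2 of the 23. The r of these genes is partly set by the filter, and no median without them was taken. By deviations from the group means, the most alike were Dysf (0.967), She (0.961), Plxnd1 (0.956), Cd34 (0.954) and Tgfb1 (0.945). Erg and Stab1 were among the 10 most alike by both measures. All these values share the libraries and their depth and carry no test.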

How the data were processed

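The authors deposited a StringTie abundance table for each library; the submitters' processing notes name cutadapt 2.4, STAR 2.7.3a, StringTie 2.0 and the build mm10. Per the file headers, each table holds TPM (per length, summing to the same total in each library), FPKM and coverage for each gene. The annotation release is not given in the sources used here. The labels state stranded polyA libraries with a stated minimum sequencing depth. Lines of 1 gene ID were summed. No counts are among the files used, so log2(TPM + 1) was fitted with limma 3.58.1 (R 4.3.3), with 5 groups, a trend on mean level, a minimum mean of 1 TPM and two-sided tests, with Benjamini-Hochberg adjustment within each of 10 comparisons and a threshold of 0.05. A fold is a ratio of mean TPM, and log2 differences understate the change of low genes because of the pseudocount of 1. The code was tested on simulated data. Genes named besides the 9 were, per list, the most abundant and those with the largest differences, all genes of the VEGF list and those most alike in profile. The genes and lists were chosen with earlier results of these data known. Replicate numbers were not taken to pair libraries, since the labels do not say that they do. Alternatives were another pseudocount, filter, scaling, unit, weights and a replicate block, left-out libraries, and 2 chosen after seeing the data: removal of GC content and length, and leaving out 2 libraries together.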

Additional observations from a re-analysis of the deposited data

How the results depend on the processing

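Over 90 results for the 9 genes and 1663 alternative values, 1561 kept direction and side of the threshold, 56 kept direction and lost the call, 30 gained one and 16 changed sign. The 16 were called in neither setting. The causes of the changes below were not tested, except that a minimum log2 difference, or a filter that drops the gene, removes calls by construction. The 45 results of other named genes were all calls in the fit of all 15 libraries, so none could gain a call. Of their 821 values, 720 stayed and the others kept direction and lost the call.

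Single genes changed sign as follows, with the lowest and highest values on leaving out 1 library. Flt1 in TLSMGC against 96h ran from -0.203 (without TLSMGC replicate 2) to 0.693, and was -0.008 without that library and 96h replicate 1 together. Kdr in TLSMGCL against 96h ran from -0.331 to 0.181 (without 96h replicate 1; 0.08 without TLSMGCL replicate 1), and was 0.024 with array weights, 0.181 without the 2 libraries and 0.011 with GC and length removed. Etv2 in TLSMGC against Gastruloid ran from -0.182 (without TLSMGC replicate 2; -0.075 without Gastruloid replicate 1) to 0.214, and Tie1 from -0.269 to 0.644. Without the 2 libraries they were -0.182 and -0.269. Flt1 in TLSMGCL against Gastruloid ran from -0.107 (without TLSMGCL replicate 3; -0.029 without Gastruloid replicate 1) to 0.265. Pecam1 in TLSMGCL against TLSMGC ran from -0.181 to 0.123, and was 0.123 without the 2 libraries.

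Of the 9 genes, the count in TLSMGC against Gastruloid ran from 0 to 5 on leaving out 1 library and was 2 without the 2 libraries. It was 0 with no filter, in a fit of only the 2 groups, with GC and length removed and with a log2 difference of at least 1. With a mean of at least 5 TPM, Pecam1 and Flt1 (means of 3.08 and 3.26 TPM over the 15 libraries) were not tested, and no tested gene passed. The count in TLSMGCL against TLSMGC ran from 0 to 7, and was 0 in a fit of only the 2 groups and without the 2 libraries, 1 with no filter and 7 with array weights. In TLSMGCL against Gastruloid it was 8 in a fit of only the 2 groups, for which the count over all genes is not given here. With the log2 minimum it was 2 in that comparison and 3 in TLSMGCL against 96h. Over all genes, the log2 minimum left 1037 calls in Gastruloid, 1303 in TLSMG, 1078 in TLSMGC and 1019 in TLSMGCL against 96h, 436 in TLSMG, 930 in TLSMGC and 841 in TLSMGCL against Gastruloid, 880 in TLSMGC and 973 in TLSMGCL against TLSMG, and 46 in TLSMGCL against TLSMGC. The last comparison had 169 calls, 56 to 197 on leaving out 1 library, 42 in a fit of only the 2 groups, 341 with array weights, 60 without the 2 libraries and 296 with GC and length removed. In TLSMG against Gastruloid there were 5622 calls, and 3366 with GC and length removed.

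Same-numbered libraries did not deviate together (r from -0.181 to 0.104), and the labels do not say that the numbers pair libraries. These values cannot exclude a shared preparation. With the replicate block, the count in TLSMGC against Gastruloid was 0 (Pecam1, adjusted p = 0.0587) and Etv2 lost its call in TLSMGCL against TLSMGC (adjusted p = 0.0645). The other 88 results were unchanged by the block in direction and side of the threshold. Depth limits the 96h values of Cdh5, Tie1, Tek, Cldn5 and Sox18, for which no fold against 96h is given. The depth per gene is known only as mean coverage.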
